A study of Canis lupus familiaris with 15 samples.

Results

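CCL19, CCL21 and SELPLG are the 3 genes of lymphocyte homing described here, out of 160 probes of a custom NanoString panel counted in skin of 15 dogs. They were taken as the probes whose RefSeq accession, without its version, maps to these dog genes, and each gene matched 1 probe (NM_001005256.1, NM_001005258.1 and NM_001242719.1). In this assay each RNA molecule is bound by a fluorescent reporter and the reporters are counted, without amplification. RNA came from archival, fixed skin biopsies. The lesional dogs were of various breeds, and the labels give no treatment. The groups were 7 dogs with discoid lupus erythematosus (DLE), aged 1 to 13 years, and 5 healthy dogs sampled at the margins of leg excisions, whose ages are not given and whose samples are re-used from an earlier series. A further dog aged 7 years had chronic cutaneous lupus with suspected systemic lupus (CCLE), a dog aged 6 years had mucocutaneous lupus (MLE), and a dog aged 9 years had pyoderma, a bacterial skin infection, and earlier carried another disease label. The body site of the lesions is not given, so site and disease cannot be told apart. Samples were treated as coming from different dogs, and the p-values measure only the spread between these samples.

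Lymphocytes leave blood by rolling on the vessel wall, stopping and crossing it. SELPLG encodes PSGL-1, the leukocyte surface glycoprotein that selectins on activated endothelium and platelets bind during rolling. CCL19 and CCL21 are the ligands of CCR7, the chemokine receptor of naive and central memory T cells and of mature dendritic cells. In lymph nodes both are made by stromal cells, and CCL19 also by mature dendritic cells, whereas in skin CCL21 is known as a product of lymphatic vessels, through which dendritic cells and T cells leave the tissue. In the reference table of the dog assembly UU_Cfam_GSD_1.0 CCL19 and CCL21 lie side by side on the same chromosome with 0 protein-coding genes between them. CCL27, a keratinocyte chemokine, lies on the other side of CCL19 with 1 such gene between. The files name no genome build, so positions are not given.

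Panel counts summed to between 209889 and 675018 in healthy dogs and to between 495839 and 587169 in DLE dogs. The 14 spike-in control rows took 8.04% to 33.3% of the counts in healthy dogs and 7.87% to 15.4% in DLE dogs, and 103 to 148 against 126 to 151 probes exceeded a dog's background limit (the mean plus 2 SD of its 8 lowest control rows). The 6 control rows with high counts were one set of rows in 9 dogs (all with DLE, MLE or pyoderma) and another, with 0 rows in common, in the other 6 (healthy and CCLE). Disease and control set therefore cannot be told apart in the comparison of DLE with healthy dogs, and values within each set are given below. The keratins KRT5, KRT14 and KRT1, markers of keratinocytes, exceeded the limit in all 5 healthy and all 7 DLE dogs. All 3 homing genes did so in all 15 dogs. The lowest count of any of them, 79 for SELPLG in healthy dog 1, lay 2.84 times over the limit, with an exact Poisson interval (95%) of 62.5 to 98.5 that covers counting error only. Levels are given as normalised counts, that is counts divided by the TMM-scaled panel total and multiplied by its mean over the dogs.

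CCL19 was higher in DLE skin than in healthy skin. In healthy dogs 1 to 5 its normalised counts were 193, 312, 155, 178 and 235. In the 7 DLE dogs they ran from 516 in dog 2 through a median of 1003 to 2043 in dog 1, with dog 7 next at 1838. Every DLE dog thus lay above every healthy dog, and the DLE dogs differed among themselves more widely than the healthy dogs, with a 3.96-fold against a 2.01-fold span. The means were 1161 ± 583 (SD, n = 7) and 215 ± 61.7 (n = 5). The log2 change was 2.43 ± 0.38 (SE, edgeR adjusted p = 0.000176), a 5.40-fold rise. Of the 154 probes tested 58 were called higher in DLE (37.7%) and 40 were higher without overlap of the groups (26%), so a rise without overlap was common on this panel, and CCL19 had the rank 24 by size of change from the highest.

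SELPLG was higher in DLE skin by 5.36-fold, beside 5.40-fold for CCL19. Its normalised counts in healthy dogs 1 to 5 were 124, 124, 158, 127 and 185, the narrowest healthy range of the 3 genes. In DLE dogs they ran from 450 in dog 4 through a median of 708 to 1390 in dog 7. All 7 DLE dogs again lay above all 5 healthy dogs. The means were 770 ± 311 (SD, n = 7) and 144 ± 27.2 (n = 5), and the log2 change was 2.42 ± 0.31 (SE, edgeR adjusted p = 2.37e-05). In bulk skin, fewer or more cells of a type and less or more RNA per cell cannot be told apart.

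CCL21, the other CCR7 ligand, was lower in DLE skin on average, and the groups overlapped. In healthy dogs 1 to 5 its normalised counts were 1115, 2343, 2689, 3116 and 973. In DLE dogs they ran from 660 in dog 6 through a median of 897 to 1450 in dog 5. Healthy dogs 2, 3 and 4 lay above every DLE dog, while healthy dogs 1 and 5 lay within the DLE range, and 5 of 7 DLE dogs lay below all healthy dogs. The means were 924 ± 259 (SD, n = 7) and 2047 ± 957 (n = 5). The log2 change was -1.15 ± 0.32 (SE, edgeR adjusted p = 0.00574), with a 95% interval from -1.83 to -0.47. On the panel 37 of 154 probes were called lower (24%), and 28 other probes had a larger fall.

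The size of the CCL21 fall rested on the scaling. Before scaling, its counts spanned 391 to 1680 in DLE dogs and 709 to 4414 in healthy dogs. Scaling to the reference genes HPRT1, an enzyme of purine salvage, and RPL13A, a ribosomal protein gene, gave a log2 change of -0.54 (edgeR adjusted p = 0.235). Under TMM the reference genes were themselves lower in DLE dogs, RPL13A at 15334 ± 3412 (SD, n = 7) against 31090 ± 8566 normalised counts (n = 5) and HPRT1 at 614 ± 80.4 against 811 ± 134. The part of a change that both genes share cannot be told apart from an offset of the scaling. Their means fell by unequal factors, and a change of 1 gene against the other was not tested. Spike-in scaling gave -0.98 (edgeR adjusted p = 0.162). It used the 6 highest control rows of each dog, which are different rows in DLE and in healthy dogs. A difference between the control sets thus enters every spike-in value that compares these groups. The scaling also moved the calls over the panel, from 58 higher and 37 lower under TMM to 82 and 17 with reference genes and 57 and 17 with spike-ins. The calls were 44 and 64 with the panel median and 54 and 48 with DESeq2 size factors in edgeR. Where the test changed as well, they were 45 and 52 for quantiles with limma and 56 and 54 for DESeq2. The median change of all probes was 0.42 under TMM, and relative to it CCL19 changed by 2.01, SELPLG by 2.0 and CCL21 by -1.57. Over the main fit and 25 alternatives the log2 change ran from 1.76 to 3.08 for CCL19 and from 1.78 to 3.09 for SELPLG, with every adjusted p under 0.05. That of CCL21 ran from -1.85 to -0.54.

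**Figure D1:**
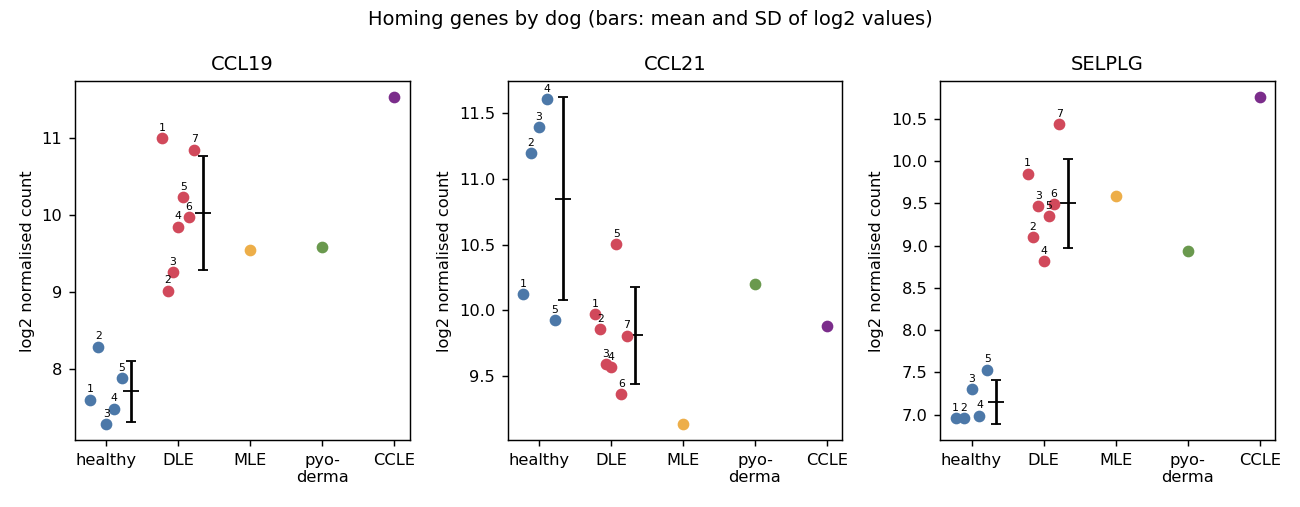
Log2 normalised counts (y axis) of CCL19, CCL21 and SELPLG in each of 15 dogs by disease group (x axis), with replicate numbers beside the points, and the mean and SD of the log2 values as bars for the 2 groups with several dogs. All 7 DLE dogs lie above all 5 healthy dogs for CCL19 and SELPLG, whereas for CCL21 healthy dogs 1 and 5 lie within the DLE range.

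**Figure D2:**
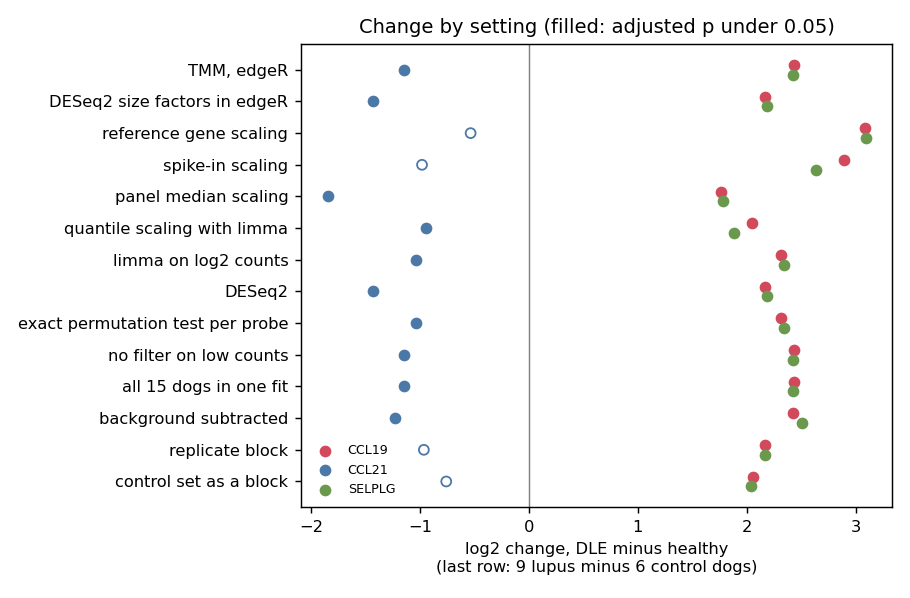
Log2 change (x axis) of CCL19, CCL21 and SELPLG in DLE against healthy dogs under the TMM edgeR fit and 13 alternatives (y axis), the last of which compares 9 lupus with 6 control dogs, with filled points where the adjusted p was under 0.05. CCL19 and SELPLG lie between 1.76 and 3.09 with every point filled, and CCL21 has 4 open points.

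Setting the CCR7 ligands against each other within a dog removes the scaling, since any factor applied to a dog cancels in the ratio. The probes may count their targets with different efficiency, so the ratio itself has no meaning as a molar ratio and only its differences between dogs are read. CCL19 counts divided by CCL21 counts were 0.173, 0.133, 0.0578, 0.0573 and 0.242 in healthy dogs 1 to 5. In DLE dogs 1 to 7 the ratios were 2.04, 0.555, 0.793, 1.21, 0.825, 1.52 and 2.05. No DLE dog fell into the healthy range, and the lowest, dog 2, stood at log2 -0.85 against -2.05 in the highest healthy dog, dog 5.

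The mean log2 ratio was 0.21 ± 0.73 (SD, n = 7) in DLE dogs and -3.14 ± 0.94 (n = 5) in healthy dogs. The difference was 3.36 ± 0.50 (SE), a 10.2-fold shift toward CCL19 (exact permutation p = 0.00253, two-sided, the smallest p that splits of 12 dogs into 7 and 5 can give). The ligands thus differed unequally between these DLE and healthy dogs, whatever factor scales a dog. A difference between the control sets that acts on single probes would not cancel in the ratio, and was not tested. The difference in mean log2 ratio between DLE and healthy dogs ran from 3.11 to 3.63 with any 1 dog left out and was 3.46 after background subtraction. With the control set as a block, 9 lupus against 6 control dogs, it was 2.76 and did not pass (exact permutation within the sets p = 0.0741, where 54 arrangements allow no p under 0.0370). The opposite directions of CCL19 and CCL21 were known from earlier results of these data, so this test is no independent evidence of them.

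**Figure D3:**
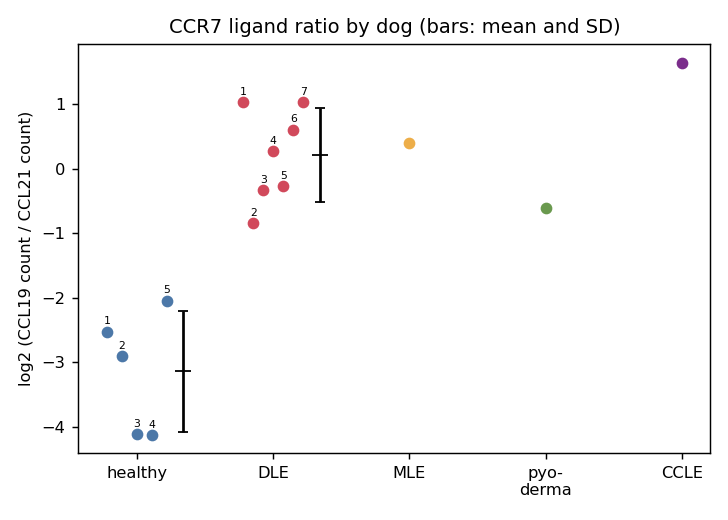
Log2 of the CCL19 count over the CCL21 count (y axis) in each of 15 dogs by disease group (x axis), with replicate numbers beside the points, and the mean and SD as bars for DLE and healthy dogs. The healthy dogs lie between -4.13 and -2.05, the DLE dogs between -0.85 and 1.04, and the CCLE dog highest at 1.64.

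The single dogs were set beside the groups without a test, since each had 1 sample. The CCLE dog had the highest CCL19 and SELPLG of all 15 dogs. Its CCL19 count of 3108 (exact Poisson interval, 95%, 3000 to 3219) became 2942 normalised counts, 14.1-fold over the healthy mean and 2.83-fold over the DLE mean of log2 values. Its SELPLG stood at 1727, 12.2-fold over the healthy and 2.38-fold over the DLE mean. On the log2 scale its differences from the healthy mean, 3.82 and 3.61, ran from 3.22 to 4.50 for CCL19 and from 3.01 to 4.29 for SELPLG over the scalings. Of 158 probes 33.5% lay above the healthy range and at least 2-fold from its mean in this dog, and 11.4% did so against the DLE dogs. Under TMM its CCL21, at 943 normalised counts, lay within the DLE range and below the healthy range. It stood 1.96-fold under the healthy mean (log2 -0.97, from -1.57 to -0.29 over the scalings). Under reference gene and spike-in scaling this dog lay inside the healthy range of CCL21. Its ligand ratio of 3.12 was likewise the highest of the 15 dogs.

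The MLE dog lay among the DLE dogs in CCL19 and SELPLG and, under TMM, had the lowest normalised CCL21 of all dogs. Under reference gene, spike-in and panel median scaling other dogs had a lower CCL21. CCL19 stood at 744 and SELPLG at 768 normalised counts, both inside the DLE range and over the healthy one, in a dog with 34.2% of probes above the healthy range by at least 2-fold. CCL21 stood at 563 (760 before scaling, exact Poisson interval, 95%, 707 to 816). This was 3.27-fold under the healthy mean, in a dog with 28.5% of probes below the healthy range by at least 2-fold, and 1.59-fold under the DLE mean. The difference from the healthy mean, log2 -1.71, was -0.85 under reference gene and -0.54 under spike-in scaling. Those of CCL19 and SELPLG, 1.84 and 2.44, ran from 1.47 to 3.01 and from 2.07 to 3.61 over the scalings. The ligand ratio, 1.32, lay inside the DLE range.

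The pyoderma dog, which had no lupus by its label, also lay above the healthy range in CCL19 and SELPLG. CCL19 stood at 767 and SELPLG at 488 normalised counts, 3.68-fold and 3.44-fold over the healthy means and inside the DLE range, in a dog with 27.2% of probes above the healthy range by at least 2-fold. CCL21 stood at 1178, inside both ranges, and its difference from the healthy mean turned from log2 -0.65 to 0.43 under reference gene scaling. Over the scalings the differences of this dog ran from 1.49 to 2.96 in CCL19 and from 1.39 to 2.86 in SELPLG on the log2 scale, with TMM at 1.88 and 1.78. The ligand ratio of 0.651 lay above all healthy dogs and inside the DLE range. A higher CCL19 and SELPLG than in healthy leg skin was thus measured in all 10 lesional dogs, that with pyoderma included.

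In order of level under TMM, with plain group means of normalised counts, CCL19 ran from the healthy mean (215) through the MLE dog (744), the pyoderma dog (767) and the DLE mean (1161) to the CCLE dog (2942). The MLE and pyoderma dogs did not differ from the DLE dogs beyond the DLE spread. SELPLG ran from the healthy mean (144) through the pyoderma (488) and MLE dogs (768) and the DLE mean (770) to the CCLE dog (1727), with the pyoderma and MLE dogs inside the DLE range. Against the DLE mean of log2 values, used above for the single dogs, the MLE dog lay 1.06-fold higher in SELPLG. CCL21 ran the other way, from the MLE dog (563) through the DLE mean (924), the CCLE dog (943) and the pyoderma dog (1178) to the healthy mean (2047), with the CCLE and pyoderma dogs inside the DLE range. These orders depend on the scaling. Under spike-in scaling the MLE dog exceeded the pyoderma dog in CCL19 (log2 3.01 against 2.33 over the healthy mean). Under reference gene scaling the pyoderma dog exceeded the healthy mean in CCL21 (log2 0.43).

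Within the control set that holds the healthy dogs, the CCLE dog exceeded the healthy mean by log2 3.82 in CCL19, 3.61 in SELPLG and 4.79 in the ligand ratio, and lay 0.97 lower in CCL21. Within the other set, the 8 DLE and MLE dogs differed from the pyoderma dog by a mean of 0.38 in CCL19, 0.58 in SELPLG, -0.48 in CCL21 and 0.85 in the ratio, and for each the pyoderma dog lay inside their range. With the set as a block, 9 lupus dogs against 6 control dogs gave log2 2.06 for CCL19 (edgeR adjusted p = 0.00587), 2.04 for SELPLG (0.00262 by the same test) and -0.76 for CCL21 (0.251). In that fit 22.1% of 154 probes were called higher and 3.9% lower. These blocked values, like that of the ratio, combine a large difference over 1 CCLE dog with a small one over 1 pyoderma dog. What the control set itself adds to the difference between DLE and healthy dogs was not tested.

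CCL19 and SELPLG kept a similar ratio over the healthy and lesional dogs. As a measure of likeness that no scaling enters, the SD over 15 dogs of the log2 ratio of their counts was 0.47, the smallest for either gene among the 71 other probes with a symbol, whose median SD was 1.73 against CCL19 and 1.74 against SELPLG. The mean log2 ratio of CCL19 to SELPLG was 0.52 ± 0.53 (SD, n = 7) in DLE dogs and 0.56 ± 0.50 (n = 5) in healthy dogs, a difference of -0.04 ± 0.30 (SE). A rise of similar size in both genes keeps the SD over the 15 dogs small. That SD thus does not show that the genes vary together among dogs of 1 group. Next to CCL19 came CD40LG, the T cell ligand that stimulates B cells (SD 0.65), and FOXP3, which specifies regulatory T cells (0.68). Next to SELPLG came TNF, an inflammatory cytokine (0.56), and FOXP3 (0.59). CD40LG and FOXP3 lay above background in 1 and 0 of the 5 healthy dogs, so their healthy levels are upper bounds.

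CCL21 had other neighbours. The smallest SDs of its log2 ratio were to KIT, the stem cell factor receptor of mast cells and melanocytes (0.66), PTGER4, a prostaglandin E2 receptor (0.68), and FMO1, a flavin-containing monooxygenase (0.68), against a median of 1.25 over 71 probes. A shared change between the groups makes this SD small, so the measure favours genes that fall with CCL21. KIT and PTGER4 were themselves lower in DLE, by log2 -0.70 and -1.0 (edgeR adjusted p = 0.0182 and 0.00226). As for CCL21, neither fall was called under reference gene scaling (-0.02 and -0.29) or spike-in scaling (-0.33 and -0.46), nor with the control set as a block. FMO1, at means of 16.3 normalised counts in healthy and 8.65 in DLE dogs, was above background in only 1 of 5 and 1 of 7 dogs, so its place beside CCL21 is read from counts at background and its change is not given. By the same measure CCL19 and SELPLG were far from CCL21 (SD 1.87 each), at ranks 61 and 62 of 71.

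Inside the DLE group alone the 3 genes were compared pair by pair over 7 dogs. CCL19 and SELPLG had Pearson's r = 0.70 (exact permutation p = 0.0790, adjusted over 3 pairs p = 0.237) and Spearman's rho = 0.71 (exact p = 0.0881, adjusted p = 0.264), and r was 0.66 without DLE dogs 1 and 2. This pair passed the test only under spike-in scaling (r = 0.85, exact permutation adjusted p = 0.0262). CCL19 and CCL21 had r = 0.29 (exact p = 0.543, adjusted p = 0.767) and rho = 0.36 (exact p = 0.444, adjusted p = 0.667), with r = 0.37 without the same 2 dogs. CCL21 and SELPLG had r = 0.09 (exact p = 0.767, adjusted p = 0.767) and rho = 0.07 (exact p = 0.906, adjusted p = 0.906), with r = 0.48 without DLE dogs 5 and 6. Both genes of a pair carry the same scaling factor of a dog. No relation between the genes within DLE thus passed the test under TMM.

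**Figure D4:**
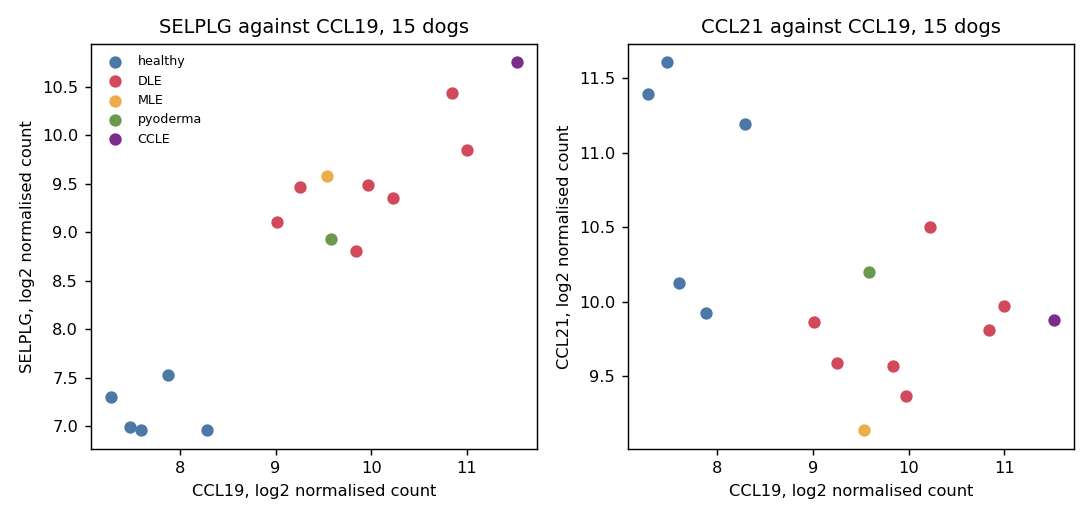
Log2 normalised counts of SELPLG (left, y axis) and CCL21 (right, y axis) against CCL19 (x axis) in 15 dogs coloured by disease group. SELPLG and CCL19 lie near a common line from the healthy dogs to the CCLE dog, and the healthy dogs hold the 3 highest CCL21 values.

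Other genes of leukocyte traffic on the panel moved in both directions. Of 14 genes written for lymphoid tissue homing, 3 matched a probe: CCL19 rose, and CCL21 and CXCL12, a stromal chemokine that retains and guides CXCR4-bearing cells, fell (median log2 -1.15 against 0.42 over all 154 probes). CXCL12 fell by 1.99 on the log2 scale (edgeR adjusted p = 0.000155), from 8186 ± 1362 (SD, n = 5) to 2060 ± 946 normalised counts (n = 7), and was not called with the control set as a block (-0.92). The receptor CCR7 itself matched no probe with a symbol, and 88 of the 160 probes had none. Of 13 selectin and adhesion genes only SELPLG matched a probe with a symbol, so no selectin could be set beside its ligand. A listed gene without a match may lie among the probes without a symbol, and measured below means matched by symbol.

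Of 12 genes of skin and mucosa homing 6 were measured, of which 1 rose, 1 fell and 4 were not called (median log2 0.70), where 37.7% of all probes were called higher and 24% lower. CCL27, which draws skin-homing T cells and neighbours CCL19 in the genome, fell by 2.33 on the log2 scale, so that in this stretch of the chromosome CCL27 and CCL21 were lower and CCL19 higher in DLE. The call of CCL27 ended with the control set as a block (-1.35). CCL28, an epithelial chemokine, rose by 3.36 with a wide SE of 1.02 (2.32 without DLE dog 2), from a healthy level above background in 1 of 5 dogs, and CCL17, a ligand of CCR4, stood at 1.71 without a call (edgeR adjusted p = 0.138). CCL28 was not called with limma or the permutation test on log2 counts (both 1.95), with quantile scaling (1.56) or with the control set as a block (0.56). CCL17 was called under reference gene scaling (2.63), but stood at -0.49 with quantile scaling, at -0.45 with DESeq2 and at -0.23 without DLE dog 4. Of 17 genes of inflammatory recruitment 10 were measured, of which 4 rose, 1 fell and 5 were not called (median log2 0.52), against the same shares of all probes. CXCL10, which draws CXCR3-bearing T cells, rose by 6.98 and CCL5, which draws T and NK cells, by 5.67, or by 3.75 and 3.52 with the control set as a block, whereas CCL24, an eosinophil chemokine, fell by 2.88 and was not called with the control set as a block (-1.28). Of all 22 chemokines with a symbol, PPBP included, 7 rose and 4 fell (median log2 0.48 against 0.42 over all probes). With 58 of 154 probes higher (37.7%) and 37 lower (24%) over the panel, these list counts lie near the background and show nothing particular to the lists.

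The few measured markers of lymphocytes and NK cells, and CD86, were higher in DLE as were CCL19 and SELPLG, whereas those of macrophages and mast cells were lower under TMM. Both measured T cell markers of 10 written rose (FOXP3 by log2 2.31, CD40LG by 1.89), as did the B cell marker MS4A1 (3.40, 1 measured of 5), the NK and cytotoxic cell marker KLRD1 (1.90, 1 of 7) and CD86 of the dendritic cell list (1.53, 1 of 8). MS4A1, like CD40LG and FOXP3, lay above background in few healthy dogs (1 of 5), so these changes are not exact, and background subtraction moved them to 5.25 for MS4A1, 3.79 for CD40LG and 4.14 for FOXP3. The macrophage marker CD163 (1 measured of 5) fell by 1.41, the mast cell markers KIT and MS4A2 (2 of 4) fell by 0.70 and 0.68, and the fibroblast collagen COL1A1 (1 of 5) fell by 1.17. None of these falls was called under reference gene scaling (-0.75 for CD163, -0.02 for KIT, 0.068 for MS4A2, -0.53 for COL1A1) or spike-in scaling. Those of KIT and COL1A1 and the rise of CD86 (0.86) were not called with the control set as a block, nor was that of COL1A1 without healthy dog 2 (-0.80). Of the keratinocyte markers (3 measured of 6), KRT14 was higher in DLE by log2 1.32 (edgeR adjusted p = 0.0243), and KRT1 and KRT5 were not called. The melanocyte markers DCT, TYR and MC1R (3 measured of 5) were not called. These changes are given under TMM only. No written marker of lymphatic or blood endothelium matched a probe with a symbol, so the vessels known to make CCL21 could not be followed by a named marker. The part of changed cell numbers in the changes of the 3 genes was not tested.

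The single dogs spread these markers apart. The CCLE dog, highest in CCL19 and SELPLG, also lay above the DLE range in MS4A1 (474 normalised counts), CD40LG (161), FOXP3 (96.5) and TNF (346). Its KLRD1 (118) and CD86 (1198) lay inside the DLE range. In this dog 11.4% of 158 probes lay above the DLE range and at least 2-fold over the DLE mean. The pyoderma dog, with CCL19 and SELPLG inside the DLE range, had MS4A1 at 12.5 and CD40LG at 15.9, both not above background and below every DLE dog, and KLRD1 at 54.6, inside the healthy range. Its CD86 (1010) lay above the healthy range. So did its FOXP3 (25.03), but from a count of 22 near its background limit of 18.6, where 0 of 5 healthy dogs were above background. In the MLE dog MS4A1 stood at 75.6, above the healthy and below the DLE range, and KLRD1 at 213, inside the DLE range.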

How the data were processed

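The authors deposited raw counts, whole numbers of at least 1, for 160 panel probes and 14 ERCC control rows. RNA was extracted with a Qiagen kit for fixed tissue, per the labels' protocols, while how counting and any background subtraction or scaling were done is not given in the sources used here. Accessions were matched without versions to a RefSeq table, which named 72 probes.

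TMM factors were computed over all panel rows without the ERCC rows. HPRT1 and RPL13A were left out of the tests, filterByExpr kept 154 of 158 probes, among them all 3 homing genes, and edgeR 4.0.16 (glmQLFit, glmQLFTest, R 4.3.3) compared 7 DLE with 5 healthy dogs, two-sided, with Benjamini-Hochberg adjustment over the 154 probes and a threshold of 0.05. SEs are the log2 change over the root of the F statistic. Exact permutation p-values are 2 times the smaller one-sided share. Ratios used counts with no pseudocount. Alternatives used limma 3.58.1, DESeq2 1.42.0, other scalings, no filter, background subtraction, blocks and leaving out each dog. The limma and per-probe permutation alternatives used log2 of the normalised count plus 1. The edgeR and permutation steps were tested on simulated data.

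The control set of a dog was read from which of 2 ERCC rows had the higher count. No pair of columns within a group differed by as little as counting noise (the closest pair had a chi-square of 163 per degree of freedom). The named genes are the 3 members, the reference genes, the 3 probes most like each member and the 3 largest changes of each list. Further genes are named as cell type markers or because a result turned on them. The members, lists and rules were chosen with earlier results of these data known.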

Additional observations from a re-analysis of the deposited data

How the results depend on the processing

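Of the 25 alternatives, 12 left out 1 dog each, and that with the control set as a block compared 9 lupus with 6 control dogs. None compared DLE with healthy dogs free of the control set. The rises of CCL19 and SELPLG kept their direction and their call in all 25 alternatives. The fall of CCL21 kept its direction in all of them and lost its call in 4: reference gene scaling (log2 -0.54), spike-in scaling (-0.98), the replicate block (-0.97) and the control set as a block (-0.76). With 1 dog left out the log2 change ran from 2.11 to 2.61 for CCL19, from 2.21 to 2.52 for SELPLG, from -1.46 to -0.95 for CCL21 and from 3.11 to 3.63 for the ligand ratio, and no call was lost. The ratio difference did not pass with the replicate block (3.11, exact p = 0.0625, a design that can give no smaller p) or with the control set as a block (2.76, exact p = 0.0741). Over the panel, 58 probes were called higher and 37 lower. With the control set as a block the counts were 34 and 6, and probes called lower numbered 17 under reference gene scaling, 17 under spike-in scaling and 64 under panel median scaling. With 1 dog left out, 53 to 59 were called higher and 35 to 42 lower. The correlation of CCL21 with SELPLG in DLE dogs turned to -0.18 under reference gene scaling, and that of CCL19 with SELPLG passed under spike-in scaling (0.85). The CCL21 difference of the pyoderma dog turned to 0.43 under reference gene scaling. Among the other genes named, MS4A2 turned to 0.068 under reference gene scaling, and CCL17 turned to -0.49 with quantile scaling, -0.45 with DESeq2 and, with 1 dog left out, ran from -0.23 (without DLE dog 4) to 1.88. The alternatives for these other genes were added after seeing the data. The labels share numbers 1 to 5 between DLE and healthy dogs without saying that they pair them. Deviations of same-numbered dogs correlated at 0.06, 0.16, 0.18, -0.14 and 0.15, so not every pair exceeded 0.1 and the numbers were not taken to pair the samples. That 4 of 5 DLE dogs correlated best with their own number is a hint of pairing from the data, not the design. CCL28 (2.14), KIT (-0.72) and MS4A2 (-0.58) also lost their calls with the replicate block. None of 8 checks for a dog far from its group passed. The counting error of SELPLG in single healthy dogs, 6.21% to 11.3%, was not small beside the spread between them (18.9%), while for CCL19 and CCL21 it was at most 9.02% against 28.0% or more.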
